A study of Homo sapiens with 24 samples.

Results

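Metallothioneins are small cysteine-rich proteins that bind zinc, copper and cadmium, and their RNA is followed here together with 2 genes of the same zinc circuit in 2 human pancreatic cancer cell lines given 2 compounds aimed at energy supply. The 8 genes are the metallothioneins MT1E, MT1F, MT1G, MT1M, MT1X and MT2A, the zinc-sensing transcription factor MTF1 and the zinc exporter SLC30A1. They were taken by symbol from both deposited count tables, where each was found as 1 of 25168 genes. The established lines BXPC3 and PANC1 received vehicle, 5 uM SR4, 300 uM lonidamine or the 2 compounds together, all for 24 h, with 3 libraries in each of the 8 groups. SR4 is known as a mitochondrial uncoupler, and lonidamine as an inhibitor of respiratory complex II, of lactate export and of mitochondrial pyruvate uptake. By its title, the study concerns a dual therapy against the bioenergetics of pancreatic cancer. All groups shared a low-glucose medium with serum, and the genotype label reads "Control" for every library. The labels do not give the doses inside the combination separately, so comparisons of the combination with 1 compound assume the same doses. They also do not say whether the 3 libraries of a group came from separate cultures, so p-values measure the spread between these libraries, which may be technical.

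The zinc circuit works as a feedback loop. Free zinc in the cytosol binds the zinc fingers of MTF1, which moves to the nucleus and binds short metal response elements (MREs) in the promoters of metallothionein genes and of SLC30A1. Metallothioneins then hold the metal, and SLC30A1, also called ZnT1, carries zinc out across the plasma membrane. The family is also induced by glucocorticoids and by oxidants, MT2A is widely expressed, and the MT1 genes lie beside it in a cluster on chromosome 16.

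The deposited tables place the 6 metallothioneins on chromosome 16 of hg38, from 56608199, the start of MT2A, to 56687807, the end of MT1X. SLC30A1 lies on the minus strand of chromosome 1 at 211571568 to 211578742 and MTF1 on the same strand at 37809567 to 37859620. RefSeq promoter sequences of GRCh38.p14 were found for 4 of the 8 genes, and those for MT1E, MT1F, MT1G and MT1M were not among them. The 250 bases before the RefSeq start were searched on both strands for the MRE core, spelled TGCACNC or TGCGCNC, which cannot both match at 1 position. The 3 promoters with a match are printed to show how densely the core sits in each, and they are read 5' to 3' on the gene's strand with matches on either strand in capitals.
MT2A, chr16:56608334-56608583, plus strand: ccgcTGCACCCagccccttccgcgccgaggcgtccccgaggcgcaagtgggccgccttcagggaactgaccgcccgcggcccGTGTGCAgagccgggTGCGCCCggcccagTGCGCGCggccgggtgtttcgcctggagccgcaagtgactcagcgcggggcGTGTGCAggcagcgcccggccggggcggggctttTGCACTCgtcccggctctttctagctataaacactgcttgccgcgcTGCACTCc
MT1X, chr16:56682220-56682469, plus strand: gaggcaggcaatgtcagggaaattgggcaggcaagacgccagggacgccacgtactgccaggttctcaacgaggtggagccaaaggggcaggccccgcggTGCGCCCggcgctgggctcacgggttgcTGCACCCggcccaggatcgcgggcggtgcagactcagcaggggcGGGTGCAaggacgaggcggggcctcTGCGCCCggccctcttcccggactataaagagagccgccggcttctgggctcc
SLC30A1, chr1:211579162-211579411, minus strand: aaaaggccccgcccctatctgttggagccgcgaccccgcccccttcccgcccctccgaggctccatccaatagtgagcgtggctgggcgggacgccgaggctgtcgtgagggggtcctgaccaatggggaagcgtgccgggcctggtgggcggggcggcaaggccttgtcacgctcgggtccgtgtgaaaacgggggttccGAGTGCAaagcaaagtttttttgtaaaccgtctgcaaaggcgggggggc

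MT2A held 7 matches, 3 of them in the last 100 bases. MT1X held 4, with 2 in the last 100 bases, and SLC30A1 held 1, at 49 to 43 bases before the start. The MTF1 window at chr1:37859593-37859842 held 0, which says only that these letters are not in it. Of 34943 human promoters of the same length, 24.8% held at least 1 match, 0.369% at least 4 and 0.0315% at least 7. In the last 100 bases the shares were 12.3% for at least 1, 1.99% for at least 2 and 0.289% for at least 3. The single match of SLC30A1 is thus of a frequent kind, while the counts for MT2A and MT1X are rare among promoters. The deposited span of MT2A begins upstream of the printed window and that of MT1X inside it, at 56682424. On the minus strand, that of SLC30A1 begins downstream of its window, at 211578742, and that of MTF1 inside its window, at 37859620. Other starts are thus annotated for these genes, and the distances given hold for the RefSeq start only. A match is a stretch of letters and not a measured binding site.

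Libraries of BXPC3 held 9.14 to 11.5 and those of PANC1 8.87 to 11.8 megacounts in genes. Values are given as CPM, the counts of a gene in every 1000000 gene counts of its library. The 8 epithelial markers had counts in all groups, and their summed level was lower with treatment, going from 6170 to 6645 CPM with vehicle to 3506 to 3555 CPM with the combination in BXPC3 and from 3823 to 3942 to 869 to 923 CPM in PANC1. The 4 islet and 5 acinar markers summed to at most 1.66 CPM in any library. The 6 immune markers summed to 21.5 to 39.6 CPM in BXPC3 and 121 to 215 CPM in PANC1, and the 6 fibroblast markers to 12.7 to 24.8 and 12.8 to 91.6 CPM, with vehicle lowest for the former and, in PANC1, highest for the latter. Not every marker of these lists had counts. Of the immune list 2 were at 0 in PANC1 with vehicle and 4 with the combination, where the sum was higher. Of the fibroblast list 3 were at 0 in both of those groups, and 4 in BXPC3 with lonidamine. The 4 endothelial markers summed to 9.35 to 10.9 CPM with vehicle and 0 to 0.865 CPM with the combination in BXPC3, and to at most 0.463 CPM in PANC1. SMAD4, known to be deleted in BXPC3, was at 0 in all 12 BXPC3 libraries. In bulk libraries of a cell line, fewer cells with a marker and less of its RNA per cell cannot be told apart. The part of these shifts in the results was not tested. Metallothionein transcripts resemble each other. Of the 50-base windows of 1 transcript per gene, 45.1% in MT1X, 20.2% in MT1G and between 3.59% and 7.05% in MT1E, MT1F, MT1M and MT2A also occurred in another gene of GENCODE v29, against 0.644% in MTF1 and 0% in SLC30A1. For MT1X, 117 of those windows belong to AC026461.1, a transcript that overlaps it on the same strand, and the deposited MT1X span ends where AC026461.1 ends. Counts of MT1X and MT1G are therefore less certain as to gene than those of SLC30A1.

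With vehicle, MT2A led in both lines, and all members but MTF1 had lower levels in PANC1. Per kilobase of the deposited gene length, MT2A stood at 157 CPM in BXPC3 and MT1E at 86.0. MT1X at 24.2 and SLC30A1 at 23.1 overlapped between libraries, MTF1 followed at 5.90, MT1F at 3.04 and MT1G at 3.02 overlapped, and MT1M at 1.49 was lowest. In PANC1 the same scale gave 77.3 for MT2A, 28.0 for MT1E, 16.4 for SLC30A1, 6.53 for MTF1 and 6.17 for MT1X, and these 5 ranges did not overlap. MT1F at 0.548 and MT1M at 0.274 overlapped, and MT1G had 0 counts in all 12 PANC1 libraries. The place of MT1X depends on the length used. Per kilobase of 1 GENCODE v29 transcript per gene it stood at 56.4 in BXPC3, clear of SLC30A1 at 23.1, and at 14.4 in PANC1, above MTF1 at 6.56, while MT1G at 5.57 in BXPC3 overlapped MTF1 at 5.93.

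A model of all 24 libraries tested the difference between lines in vehicle, where 84.3% of 13930 genes differed with 41.3% higher and 43% lower in PANC1. MT2A counted 221, 201 and 190 CPM in the BXPC3 libraries and 99.8, 100 and 101 CPM in those of PANC1, a log2 difference of -1.11 ± 0.062 (SE; edgeR's quasi-likelihood test, Benjamini-Hochberg adjusted p = 4.027e-19). The log2 difference was -1.70 ± 0.067 for MT1E, -2.06 ± 0.13 for MT1X and -0.58 ± 0.046 for SLC30A1. MTF1 did not pass, at 0.06 ± 0.066 (adjusted p = 0.401). MT1F and MT1M entered this model only through BXPC3, where they are high, so a lower level in PANC1 was favoured by the filter, and their log2 differences of -2.52 and -2.47 are a description. MT1G was at least 20.7-fold higher in BXPC3, taken against the limit of 3 counts over the PANC1 group. The lines were counted in separate tables, and line and any difference in handling cannot be told apart.

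**Figure D1:**
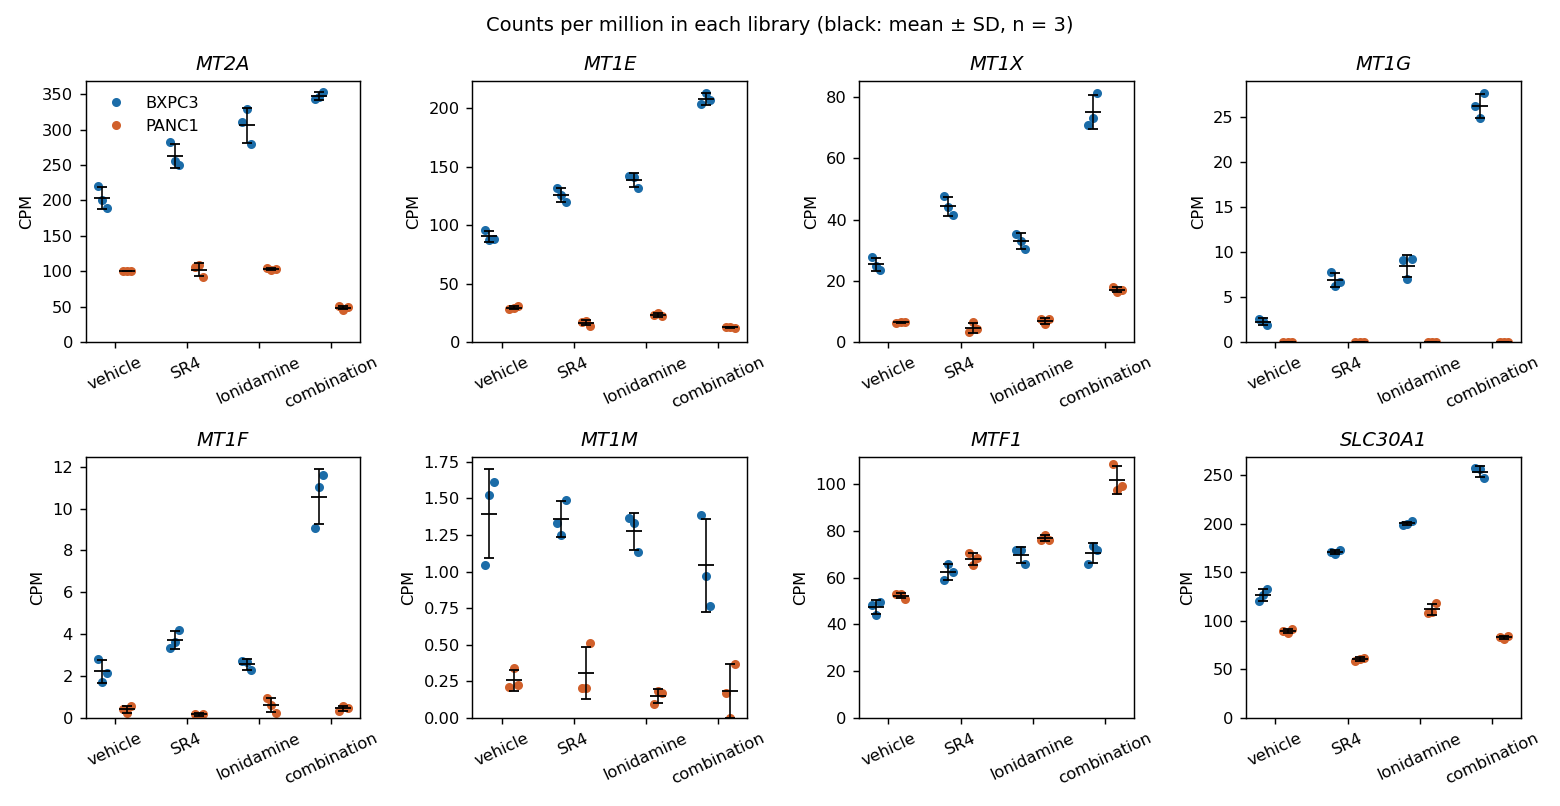
CPM of the 8 genes in each of 24 libraries, with BXPC3 in blue, PANC1 in orange and the 4 treatments along the horizontal axis. Black bars give the mean and SD of 3 libraries. All metallothioneins but MT1M climb to their highest level with the combination in BXPC3, while in PANC1 MT2A and MT1E are at their lowest there and MT1X at its highest.

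In BXPC3 the 3 arms of the circuit, metallothioneins, sensor and exporter, rose. With the combination MT1G rose 11.98-fold, MT1F 4.90-fold, MT1X 3.07-fold, MT1E 2.39-fold, SLC30A1 2.09-fold, MT2A 1.77-fold and MTF1 1.55-fold. MT1M, near 1 CPM, did not pass in any comparison. All 8 genes could be tested in this line. Against vehicle, 7 rose with SR4, 6 with lonidamine and 7 with the combination, and 0 fell. These counts stand beside a background in which 67.2%, 67.5% and 79.2% of 12920 tested genes were called in either direction, with 33.4%, 34.8% and 39.7% rising and 33.9%, 32.7% and 39.5% falling. The median log2 change of the 8 genes was 0.43, 0.61 and 1.16 in that order, where the median of all genes was 0.01, 0.03 and -0.000962. The 8 genes were chosen with earlier results of these data known, so the counts and medians describe them and do not test the set.

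MT2A, the most abundant metallothionein, counted 221, 201 and 190 CPM with vehicle, 282, 256 and 250 CPM with SR4, 310, 329 and 280 CPM with lonidamine and 343, 346 and 353 CPM with the combination. No treated library overlapped the vehicle libraries, and the combination lay above all others. The log2 changes were 0.34 ± 0.057 with SR4, 0.63 ± 0.057 with lonidamine and 0.83 ± 0.057 with the combination (SE; edgeR's quasi-likelihood test, Benjamini-Hochberg adjusted p = 8.261e-06, 2.146e-10 and 3.751e-13).

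MT1E counted 95.6, 87.5 and 87.7 CPM with vehicle, 132, 126 and 119 CPM with SR4, 142, 141 and 131 CPM with lonidamine and 203, 213 and 207 CPM with the combination. The single compounds overlapped each other, and both stood clear of vehicle and of the combination. Its log2 change was 0.45 ± 0.051, 0.65 ± 0.051 and 1.26 ± 0.050 in that order of treatments.

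MT1X counted 27.6, 24.9 and 23.7 CPM with vehicle, 47.6, 44.1 and 41.4 CPM with SR4, 35.4, 33.0 and 30.5 CPM with lonidamine and 71.0, 73.0 and 81.3 CPM with the combination. The 4 groups did not overlap, and SR4 lay above lonidamine, the reverse of the order of the group means in MT2A. Its log2 change was 0.78 ± 0.080 with SR4, 0.41 ± 0.084 with lonidamine and 1.62 ± 0.076 with the combination.

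MT1G moved most among the 8. It counted 2.62, 2.29 and 1.88 CPM with vehicle, 7.82, 6.24 and 6.61 CPM with SR4, 9.08, 7.04 and 9.26 CPM with lonidamine and 26.2, 24.9 and 27.6 CPM with the combination. The lowest combination library held 230 counts and the highest vehicle library 30. The log2 changes were 1.58 ± 0.18, 1.93 ± 0.18 and 3.58 ± 0.15 (adjusted p = 4.789e-18 for the combination, same test).

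MT1F counted 2.79, 1.72 and 2.15 CPM with vehicle and 9.07, 11.03 and 11.6 CPM with the combination. It rose with SR4 by 0.71 ± 0.22 and with the combination by 2.29 ± 0.19 on the log2 scale. With lonidamine its libraries overlapped those of vehicle, at 0.23 ± 0.24 (adjusted p = 0.400). MT1M held 7 to 18 counts per library in this line, and its log2 change with the combination was -0.35 ± 0.34 (adjusted p = 0.343). At such counts a difference of this size was not detectable.

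MTF1, the zinc sensor, counted 48.3, 43.9 and 49.6 CPM with vehicle, 59.1, 65.6 and 62.3 CPM with SR4, 71.8, 71.7 and 65.8 CPM with lonidamine and 65.7, 73.6 and 71.9 CPM with the combination. Every treated library lay above every vehicle library, and the combination overlapped lonidamine. The log2 changes were 0.37 ± 0.066, 0.60 ± 0.065 and 0.63 ± 0.066. SLC30A1, the plasma membrane zinc exporter, counted 120, 127 and 132 CPM with vehicle, 171, 168 and 173 CPM with SR4, 199, 200 and 202 CPM with lonidamine and 257, 256 and 247 CPM with the combination. Its 4 groups did not overlap, and it rose by 0.41 ± 0.041, 0.70 ± 0.040 and 1.06 ± 0.040 on the log2 scale.

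The combination also stood above each compound alone in BXPC3. Against SR4 alone 7 of the 8 genes rose, where 60.8% of genes were called, 30.3% rising and 30.5% falling. Against lonidamine alone 6 rose, where 60.8% were called, 30.1% rising and 30.7% falling. MT1G lay 2.003 ± 0.12 above SR4 and 1.65 ± 0.12 above lonidamine on the log2 scale. MT2A lay 0.20 ± 0.055 above lonidamine (adjusted p = 0.00299, edgeR's quasi-likelihood test), the smallest of the 6 rises, and 0.13 without lonidamine replicate 3 (adjusted p = 0.0321). MTF1 did not pass there, at 0.03 ± 0.063 (adjusted p = 0.698).

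In PANC1 the same genes moved apart from each other. With the combination MT1X and MTF1 rose to 2.66 and 1.96 times vehicle, MT1E and MT2A fell to 0.435 and 0.489 of vehicle, and SLC30A1 did not pass. In this line 5 of the 8 genes passed the filter on low counts. MT1F, with 1 to 10 counts per library, MT1M, with 0 to 5, and MT1G, with 0, were not tested. Among the 5, SR4 gave 1 rise and 3 falls, lonidamine 2 rises and 1 fall, and the combination 2 rises and 2 falls. The background was 71.7%, 69.2% and 81.1% of 12514 genes called in either direction, with 35%, 35% and 40.1% rising and 36.7%, 34.2% and 40.9% falling, so the share of the 5 that was called was near that of all genes or under it.

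MT2A counted 99.8, 100 and 101 CPM with vehicle, 106, 108 and 92.2 CPM with SR4, 105, 103 and 103 CPM with lonidamine and 50.6, 45.98 and 49.0 CPM with the combination. Neither compound alone moved it past the test, and the combination libraries lay clear below all others. The log2 change was 0.06 ± 0.055 with SR4 (adjusted p = 0.322) and -1.03 ± 0.060 with the combination (edgeR's quasi-likelihood test, adjusted p = 3.065e-15). Without SR4 replicate 3, the SR4 value was 0.14 and passed (adjusted p = 0.0181). With lonidamine it was -0.0033 ± 0.054 (adjusted p = 0.961), although each lonidamine library lay above each vehicle library in CPM, and its sign changes with the scaling.

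MT1E counted 28.1, 29.3 and 30.9 CPM with vehicle, 16.9, 18.5 and 14.0 CPM with SR4, 23.1, 24.6 and 21.9 CPM with lonidamine and 13.0, 13.0 and 11.9 CPM with the combination. All treated groups lay below vehicle, and the combination lay lowest. It fell by 0.80 ± 0.096 with SR4, by 0.39 ± 0.088 with lonidamine and by 1.20 ± 0.098 with the combination on the log2 scale.

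MT1X counted 6.18, 6.65 and 6.58 CPM with vehicle, 3.38, 6.46 and 4.17 CPM with SR4, 7.51, 5.77 and 7.53 CPM with lonidamine and 17.9, 16.3 and 16.9 CPM with the combination. The combination lay above all other libraries, while both single compounds overlapped vehicle. Its log2 change with the combination was 1.41 ± 0.15 (edgeR's quasi-likelihood test, adjusted p = 1.639e-09). The change with SR4, -0.43 ± 0.19, passed narrowly (adjusted p = 0.0455) and rests on single libraries. It was -0.24 without SR4 replicate 1 (adjusted p = 0.276), -0.35 without SR4 replicate 3 (adjusted p = 0.151) and -0.75 without SR4 replicate 2 (adjusted p = 0.00132), and it did not pass without any 1 of the vehicle libraries. The rise with the combination carries the limit of sequence shared with AC026461.1 given above.

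MTF1 counted 52.9, 53.0 and 50.9 CPM with vehicle, 70.4, 65.5 and 68.2 CPM with SR4, 76.1, 78.3 and 76.2 CPM with lonidamine and 108, 97.3 and 99.2 CPM with the combination. The 4 groups stood in this order without overlap. Its log2 changes were 0.41 ± 0.057, 0.51 ± 0.056 and 0.97 ± 0.054 (adjusted p = 1.181e-15 for the combination, same test).

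SLC30A1 counted 89.8, 87.6 and 91.4 CPM with vehicle, 58.8, 60.6 and 62.1 CPM with SR4, 108, 109 and 118 CPM with lonidamine and 83.6, 81.5 and 84.0 CPM with the combination. SR4 lay lowest, lonidamine highest, and the combination between SR4 and vehicle. It fell by 0.53 ± 0.052 with SR4 and rose by 0.27 ± 0.048 with lonidamine on the log2 scale. With the combination the value was -0.10 ± 0.050 (edgeR's quasi-likelihood test, adjusted p = 0.0756), and on total counts without TMM factors it was -0.11 and passed (adjusted p = 0.0402).

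Against SR4 alone, the combination in PANC1 raised MT1X, MTF1 and SLC30A1 and lowered MT1E and MT2A, with 66.5% of genes called, 33.2% rising and 33.4% falling. Against lonidamine alone it raised MT1X and MTF1 and lowered MT1E, MT2A and SLC30A1, with 74.6% called, 37.1% rising and 37.5% falling. MT2A gave nearly the same difference in both, -1.09 ± 0.059 against SR4 and -1.03 ± 0.058 against lonidamine. SLC30A1 differed by 0.44 ± 0.052 from SR4 and by -0.36 ± 0.047 from lonidamine on the log2 scale, so it lay between them.

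**Figure D2:**
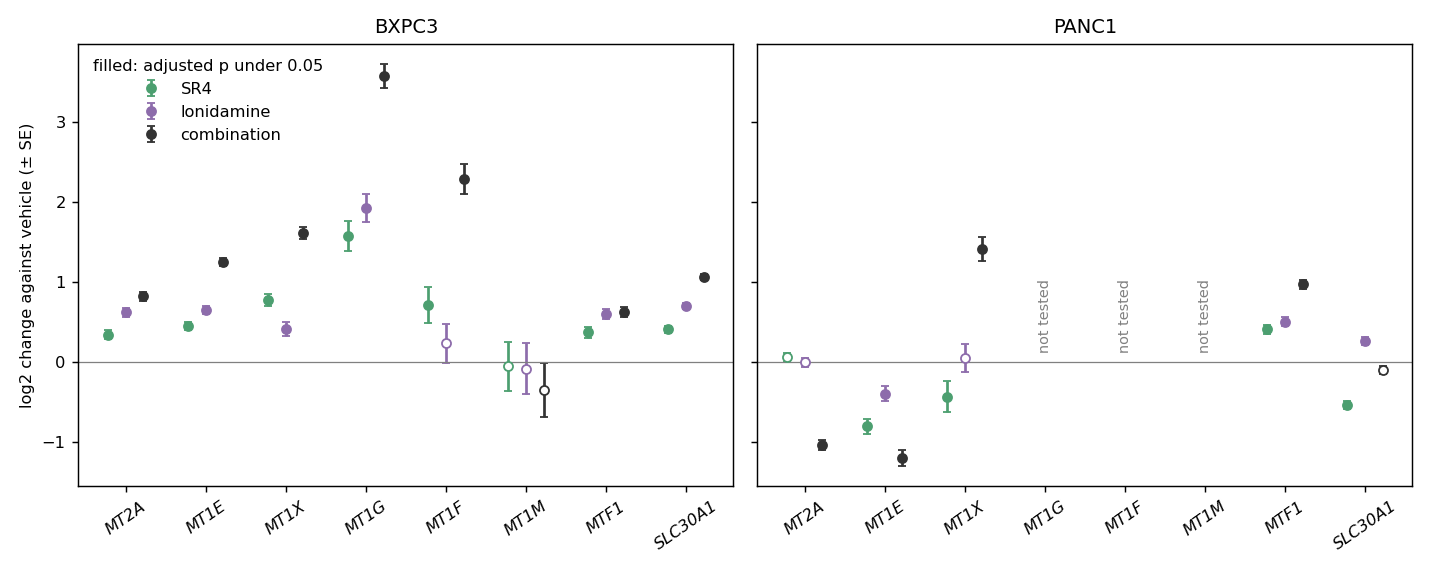
Log2 changes against vehicle with their SE for the 8 genes in BXPC3 (left) and PANC1 (right), with SR4 in green, lonidamine in purple and the combination in black. Filled points have an adjusted p under 0.05. In BXPC3 the called points are all above 0, from 0.34 for MT2A with SR4 to 3.58 for MT1G with the combination, while in PANC1 they lie on both sides, from -1.20 for MT1E to 1.41 for MT1X, both with the combination.

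The study's design also asks whether the combination differs from the sum of the single changes, which an interaction term tests on the log2 scale. In BXPC3 3 of the 8 genes departed from the sum. MT1F exceeded it by 1.35 ± 0.30 and MT1X by 0.43 ± 0.11, and MTF1 departed by -0.34 ± 0.091, that is downward (edgeR's quasi-likelihood test, adjusted p = 5.302e-04, 0.00218 and 0.00291). Of 12920 genes 49.2% departed from their sum, 23.7% upward and 25.5% downward. The other 5 members did not pass. MT1G stood at 0.07 ± 0.24, SLC30A1 at -0.05 ± 0.056, MT1M at -0.22 ± 0.47, MT2A at -0.14 ± 0.079 and MT1E at 0.16 ± 0.071 (adjusted p = 0.0688 for MT1E). MT1E passed with DESeq2 size factors (adjusted p = 0.0384) and without the low-count filter (adjusted p = 0.0292), and also at 0.19 without vehicle replicate 2 or without SR4 replicate 1 (adjusted p = 0.0407 and 0.0390). MT2A passed at -0.18 on total counts without TMM factors (adjusted p = 0.0444), at -0.21 without lonidamine replicate 3 (adjusted p = 0.0128) and at -0.21 without vehicle replicate 1 (adjusted p = 0.0274).

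In PANC1 2 metallothioneins departed from the sum in opposite directions. MT1X exceeded it by 1.79 ± 0.24 and MT2A departed by -1.09 ± 0.080, where 60.9% of 12514 genes departed, 30.8% upward and 30% downward (edgeR's quasi-likelihood test, adjusted p = 2.752e-07 and 3.040e-12). MT2A thus fell with the combination while its single changes were 0.06 and -0.0033. MT1E, at -0.0072 ± 0.14, and MTF1, at 0.06 ± 0.076, did not pass. SLC30A1 exceeded its sum by 0.17 ± 0.071 (adjusted p = 0.0419), and by 0.18 without passing in the test of DESeq2 (adjusted p = 0.0786). In edgeR's quasi-likelihood test it also did not pass without the low-count filter, at 0.17 (adjusted p = 0.0600). On total counts without TMM factors it was 0.14 and did not pass (adjusted p = 0.0860). Nor did it pass without vehicle replicate 1 or 3, lonidamine replicate 1 or 2, SR4 replicate 1, or combination replicate 1 or 3. Those values were 0.14 to 0.17 (adjusted p = 0.0688 to 0.106).

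**Figure D3:**
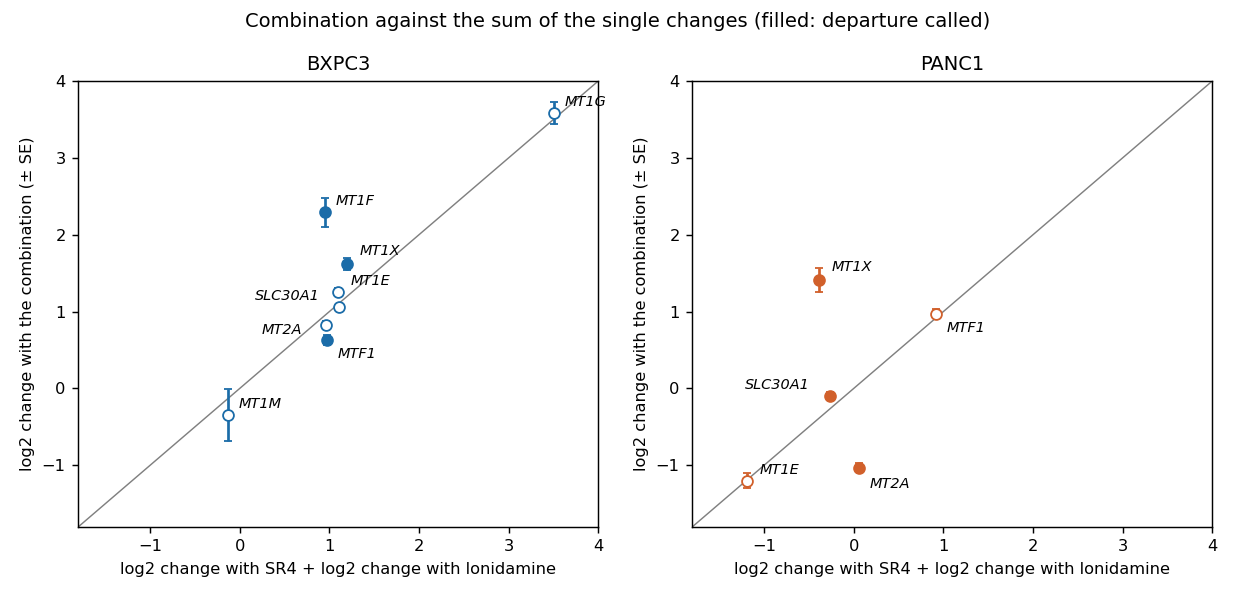
Log2 change with the combination (vertical, with SE) against the sum of the 2 single log2 changes (horizontal) for the tested members of each line, with the line of equality in grey. Filled points departed from the sum. MT1F and MT1X lie above the line in BXPC3, and in PANC1 MT1X lies above it and MT2A below it.

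The difference in response between the lines was tested as PANC1 minus BXPC3 in the model of all libraries. Of the 5 members tested in both lines, MT1E, MT2A and SLC30A1 responded lower in PANC1 with the combination, MTF1 higher, and MT1X did not pass. The background was 61.9% of 13930 genes called, 31.7% higher and 30.2% lower. MT1E differed most, by -2.50 ± 0.11 on the log2 scale, with MT2A at -1.90 ± 0.091 and SLC30A1 at -1.20 ± 0.063 (edgeR's quasi-likelihood test, Benjamini-Hochberg adjusted p = 3.560e-22, 1.477e-20 and 3.328e-19). MTF1 differed by 0.30 ± 0.087. MT1X, which rose in both lines, differed by -0.25 ± 0.17 (adjusted p = 0.221), so its combination response was not told apart between them.

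With SR4, 4 of these 5 responded lower in PANC1, where 51.2% of genes differed, 26.2% higher and 24.9% lower. SLC30A1, which rose in BXPC3 and fell in PANC1, differed by -0.95 ± 0.066, MT1E by -1.26 ± 0.11, MT1X by -1.22 ± 0.21 and MT2A by -0.28 ± 0.087. MT2A was at -0.19 and did not pass without PANC1 SR4 replicate 3 (edgeR's quasi-likelihood test, adjusted p = 0.0634). With lonidamine, 3 of the 5 responded lower, where 41.8% of genes differed, 23.5% higher and 18.2% lower. These were MT1E by -1.01 ± 0.098, MT2A by -0.60 ± 0.086 and SLC30A1 by -0.40 ± 0.062. MTF1 rose in both lines with both single compounds, and its responses did not differ past the test, at 0.04 ± 0.089 with SR4 and -0.06 ± 0.088 with lonidamine. MT1F and MT1M, under the low-count filter in PANC1, entered the joint model only through BXPC3. The fitted differences of MT1F were -1.86 with SR4 and -2.13 with the combination, on 1 to 10 counts per PANC1 library, and are a description. MT1G could not be compared as a response, because it stayed at 0 in PANC1. Against the limit of 3 counts over each PANC1 group it was at least 67.5-fold higher in BXPC3 with SR4, 93.6-fold with lonidamine and 285-fold with the combination.

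The summed metallothionein level was higher with the combination than with vehicle in every BXPC3 library and lower in every PANC1 library. In BXPC3 the sum was 326 ± 22.4 CPM with vehicle, 447 ± 26.6 with SR4, 491 ± 31.8 with lonidamine and 674 ± 14.3 with the combination (SD, n = 3 each). In PANC1 it was 141 ± 2.34, 127 ± 11.6, 136 ± 1.80 and 80.3 ± 2.81 CPM in that order. The make-up of the pool moved in both lines. MT2A went from 62.5% ± 0.67 of the BXPC3 pool with vehicle to 51.5% ± 0.43 with the combination, while MT1G went from 0.691% ± 0.070 to 3.88% ± 0.17 and MT1X from 7.79% ± 0.090 to 11.1% ± 0.58. In PANC1, MT2A went from 71.0% ± 0.82 to 60.4% ± 0.91 and MT1X from 4.58% ± 0.15 to 21.2% ± 0.32. With either compound alone the MT2A share in PANC1 shifted the other way, to 80.8% ± 1.2 with SR4 and 76.3% ± 0.25 with lonidamine. These shares did not overlap between vehicle and combination in either line, where 3 libraries against 3 allow an exact permutation p of no less than 0.1. The MT1X part, and with it every share of the pool, carries the limit of sequence shared with AC026461.1 given above.

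**Figure D4:**
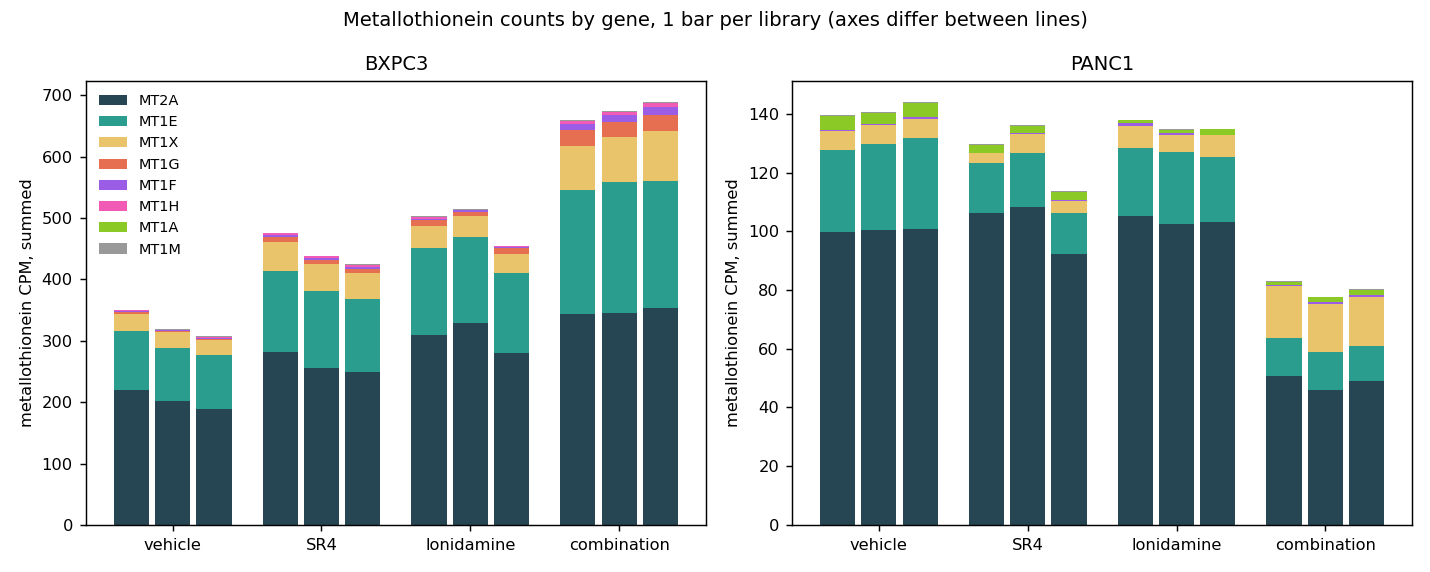
Summed metallothionein CPM in each of 24 libraries, 1 stacked bar per library and 1 colour per gene, with BXPC3 left and PANC1 right on different vertical scales that start at 0. The bars grow from 307 to 351 CPM with vehicle to 660.2 to 689 CPM with the combination in BXPC3 and shrink in PANC1, where the yellow MT1X segment widens. MT1X counts may include reads of the overlapping AC026461.1.

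Of 10 further metallothionein genes and pseudogenes looked for, 7 were in the tables and 2 had more than 1 count in any library. MT1H, next to MT1G in the cluster, was lowest with vehicle and highest with the combination, like its neighbour. In group means MT1H was higher with SR4 than with lonidamine, the reverse of MT1G. For both genes the libraries of the single compounds overlapped, and this order was not tested. MT1H held 4, 7 and 4 counts in the BXPC3 vehicle libraries, 56, 54 and 71 in those of the combination and 0 in all of PANC1. The fitted rise in BXPC3 was 3.87 ± 0.32 on the log2 scale. Its vehicle counts lay under the filter's minimum of 10. It thus reached the test only through treated libraries, and its rise is a description. Its RefSeq promoter held 8 matches to the MRE core, which 0.0172% of promoters reach. MT1A went the other way. It held at most 1 count in any BXPC3 library, and in PANC1 it counted 4.82, 3.61 and 4.90 CPM with vehicle and 1.03, 1.56 and 1.76 CPM with the combination. It fell in PANC1 by 0.69 ± 0.23 with SR4, by 1.73 ± 0.26 with lonidamine and by 1.61 ± 0.26 with the combination on the log2 scale. The deposited span of MT1A, 56638666 to 56750276, overlaps those of MT1B, MT1F, MT1G, MT1H, MT1IP, MT1X, NUP93 and MIR1972-1. MT1G and MT1H held 0 counts in every PANC1 library, and MT1X held 261 to 743 counts in those of BXPC3. From which gene the reads of MT1A come was not tested. MT1B had 1 count in 1 library of each line and MT3 had 1 count in 1 PANC1 library.

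Other genes of the SLC30A family, many of which move zinc out of the cytosol into organelles or out of the cell, rose in both lines with the combination. This list was chosen with earlier results of these data known, so its counts are a description. All 5 tested in BXPC3 rose, where 39.7% of all genes rose, with a median log2 change of 0.87. In PANC1, where 40.1% rose, the 5 tested genes other than SLC30A2 rose, with a median of 0.80, of 9 listed. The 2 with the smallest adjusted p were SLC30A5 and SLC30A7, which load zinc into the secretory pathway. SLC30A5 went from 64.4 ± 2.56 to 118 ± 6.03 CPM in BXPC3 and from 107 ± 4.02 to 250 ± 6.62 CPM in PANC1 (SD, n = 3 each), log2 changes of 0.94 ± 0.050 and 1.24 ± 0.051. SLC30A7 changed by 0.87 ± 0.053 and 1.37 ± 0.070. The combination response of both was higher in PANC1, by 0.26 ± 0.074 and 0.47 ± 0.089 (edgeR's quasi-likelihood test, adjusted p = 0.00213 and 2.071e-05), the opposite sign to that of SLC30A1. SLC30A2, set apart after its values were seen, held 1, 0 and 1 counts with vehicle in PANC1 and 28, 19 and 32 with the combination. It reached the test only through the combination libraries, so its rise is a description.

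Zinc importers of the SLC39A family, which bring zinc into the cytosol, split. In BXPC3 4 rose, 5 fell and 2 did not pass of 11 tested with the combination, and in PANC1 5 rose, 4 fell and 1 did not pass of 10. Among all genes 39.7% rose and 39.5% fell in BXPC3 and 40.1% and 40.9% in PANC1, so the split is near the background. SLC39A10, a zinc importer of the plasma membrane, fell most among importers in both lines. It counted 32.3, 35.4 and 35.2 CPM in BXPC3 with vehicle and 3.95, 4.54 and 3.61 CPM with the combination, and 67.6, 73.7 and 71.4 CPM and 22.8, 20.9 and 22.3 CPM in PANC1. No treated library overlapped vehicle, and the log2 changes were -3.03 ± 0.11 and -1.67 ± 0.065 (edgeR's quasi-likelihood test, adjusted p = 8.800e-19 and 3.207e-19). Its combination response was 1.32 ± 0.14 higher, that is less negative, in PANC1. SLC39A8, a zinc and manganese importer, fell by 1.20 in BXPC3 and stood under 1 CPM on average in every PANC1 group. SLC39A1 fell by 0.86 in PANC1. SLC39A7, which releases zinc from the endoplasmic reticulum, rose by 0.88 ± 0.042 in BXPC3 and 1.22 ± 0.038 in PANC1, and SLC39A13, of intracellular vesicles, by 1.504 ± 0.063 and 1.28 ± 0.081.

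**Figure D5:**
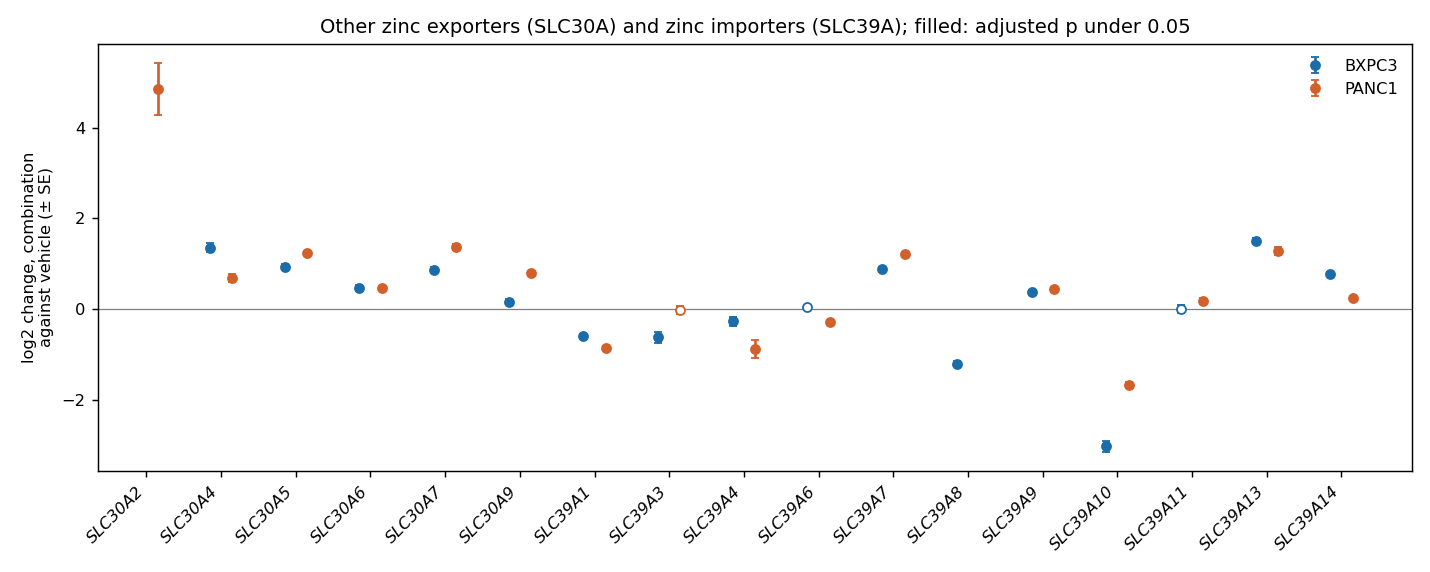
Log2 change with the combination against vehicle, with SE, for the tested SLC30A genes other than SLC30A1 and the tested SLC39A genes, with BXPC3 in blue and PANC1 in orange. Filled points have an adjusted p under 0.05. The SLC30A points are all above 0, the SLC30A2 point of PANC1 rests on 2 vehicle counts, and SLC39A10 lies lowest in both lines, at -3.03 and -1.67.

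Genes of copper handling, another metal held by metallothioneins, showed no common direction in BXPC3. In PANC1 more of them fell than rose with the combination. With the combination 5 of 13 rose and 5 fell in BXPC3, with a median log2 change of -0.08, and 4 rose and 8 fell in PANC1, with a median of -0.64. The shares over all genes were 39.7% and 39.5% in BXPC3 and 40.1% and 40.9% in PANC1, and the BXPC3 split is near them. SLC31A1, the main copper importer, went from 101 ± 3.08 to 287 ± 4.46 CPM in BXPC3 and from 47.0 ± 1.87 to 199 ± 9.39 CPM in PANC1 (SD, n = 3 each), log2 changes of 1.56 and 2.10. COX19, which serves the assembly of cytochrome c oxidase, rose by 1.48 and 1.09. SOD1, the copper and zinc superoxide dismutase, fell by 0.86 and 1.15 in the 2 lines. The copper chaperone ATOX1 fell by 1.24 in BXPC3, and COX11, another assembly factor of cytochrome c oxidase, fell by 0.78 in PANC1.

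Genes with a like pattern were ranked over the 6 log2 changes against vehicle by the root mean square difference, among 9799 genes whose mean log2 CPM reached 2. The metallothionein pattern was the median of MT1E, MT1X and MT2A, the 3 tested in both lines. With the combination in PANC1 these changed by -1.20, 1.41 and -1.03, so the median follows MT2A and the ranked genes go against MT1X there. Nearest to it were ARHGAP27 at 0.157, TPBG at 0.159, TMEM44 at 0.199, DSC2 at 0.202 and PNMA1 at 0.203, where the median distance of all candidates was 0.936. ARHGAP27 changed by 1.30 with the combination in BXPC3 and by -0.93 in PANC1. Nearest to SLC30A1 were SLC35F5 at 0.0917, ACSL3 at 0.104, GSK3B at 0.108, WDFY3 at 0.125 and TBC1D20 at 0.138, where the median distance was 0.780. SLC35F5 changed by 0.88 with the combination in BXPC3 and by -0.15 in PANC1, by the side of 1.06 and -0.10 for SLC30A1. The 3 changes of a line share their vehicle libraries, and such a ranking describes likeness in these 24 libraries alone.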

How the data were processed

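RNA-seq counts of the 8 genes in 24 libraries were analysed. The authors deposited 1 table of raw gene counts per line, with 25168 genes, 12 libraries and a gene length. The submitters' processing notes name the build as GRCh38 and hg38 and list DESeq2, Partek and STAR 2.7.8a, with no role for any. Per the labels' protocols, libraries were made from total RNA with the KAPA mRNA Hyper Prep kit. What counted the reads, how reads matching several genes were treated, and whether strand was used are points not given in the sources used here. Reads from near-identical metallothioneins, or from MT1X and the transcript overlapping it, may therefore be split or lost. The third SR4 column of BXPC3 carries another number than its sample title and was kept as an unnumbered replicate. Replicate pairs differed by 1.31 to 3.77 chi-square per degree of freedom, so no library was a copy of another.

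In edgeR 4.0.16, filterByExpr at a minimum count of 10 chose the genes tested, and TMM scaled the libraries. The quasi-likelihood test was fitted on the 4 groups of each line (8 residual degrees of freedom) and on all 24 libraries in 8 groups for the differences between lines. P-values were adjusted over all genes tested by the Benjamini-Hochberg method, with calls at 0.05. The SE of a log2 change is its size over the square root of F. Printed CPM use the total gene count without TMM factors. Levels per kilobase were first taken over 1 GENCODE transcript per gene. The deposited gene lengths were put first after both sets of values were seen. Genes outside the members were named by a rule, namely the 2 with the smallest adjusted p per direction in each list for the combination, and the 5 nearest patterns. The members and lists were chosen with earlier results of these data known. The alternatives tried were the test and the size factors of DESeq2 1.42.0, testing without the low-count filter, fitting the compared groups alone, a replicate block, total counts without TMM factors (chosen after seeing the data), a lower minimum level for the nearest genes, and every library left out in turn. R 4.3.3 and Python 3.11.15 were used, and the fits were tested on simulated data.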

Additional observations from a re-analysis of the deposited data

Results flagged for a closer look

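Differences in response between the lines were flagged where edgeR's quasi-likelihood test passed at a Benjamini-Hochberg adjusted p, taken over all genes, of 0.05. For the 5 genes tested in both lines 11 of 15 passed, 4 of 5 with SR4, 3 of 5 with lonidamine and 4 of 5 with the combination, where 51.2%, 41.8% and 61.9% of all genes did. These genes were chosen with earlier results of these data known, so the shares are a description. MT1F was flagged with SR4 and with the combination too, but failed the low-count filter in PANC1 and entered through BXPC3, where it is high. MT1G, at 0 in PANC1, could not be tested. Each value is the log2 response of PANC1 minus that of BXPC3. With SR4 these were MT1E at -1.26, MT1F at -1.86, MT1X at -1.22, MT2A at -0.28 and SLC30A1 at -0.95. With lonidamine they were MT1E at -1.01, MT2A at -0.60 and SLC30A1 at -0.40. With the combination they were MT1E at -2.50, MT1F at -2.13, MT2A at -1.90, MTF1 at 0.30 and SLC30A1 at -1.20. Of these 13 values, only MTF1 with the combination was higher in PANC1. The values for MT1F rest on 1 to 10 counts per PANC1 library. The lines also differed in the fall of the summed epithelial markers with the combination, to 3506 to 3555 CPM in BXPC3 and to 869 to 923 CPM in PANC1, and the part of this in the differences was not tested.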

How the results depend on the processing

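Of 80 member results that passed the test, 1636 of 1667 recalculations kept direction and call, 31 lost the call and 0 changed sign. The 80 include differences between lines for MT1F with SR4, with the combination and in vehicle, and for MT1G and MT1M in vehicle. These genes entered the joint model only through BXPC3, so their kept direction was favoured by the filter and is a description. The 31 concern MT1X with SR4 in PANC1, the departure of SLC30A1 from its sum in PANC1, and MT1F and MT2A between the lines. For each the cause of the loss was not tested. Of 30 results that did not pass, 30 of 676 recalculations changed sign and 11 passed, and 635 did neither. These results include the responses of MT1G between lines, which its 0 counts in PANC1 leave without a usable test. Among the 11 is its combination response in the test of DESeq2, at -3.89 (adjusted p = 0.0359), which is a description for the same reason. Counts of called members moved by over 1.5 times in 1 case, the SR4 response between lines, from 5, MT1F among them, to 3 without PANC1 SR4 replicate 3 (3 to 5 over all left-out libraries). The sign of MT2A with lonidamine in PANC1 turned to 0.020 without the low-count filter and to 0.047 on total counts, and lay between -0.016 and 0.0034 when libraries were left out. The SR4 response of MTF1 between lines turned to -0.013 with DESeq2 size factors, -0.014 in the test of DESeq2 and -0.018 on total counts. Leaving out libraries also turned the sign of other values near 0. MT1M ranged from -0.22 to 0.068 with SR4 and from -0.25 to 0.042 with lonidamine in BXPC3, and from -0.20 to 0.56 and -0.97 to 0.47 for its SR4 and combination responses between lines. MTF1 ranged from -0.020 to 0.078 for the combination against lonidamine in BXPC3 and from -0.0055 to 0.095 between lines in vehicle, where total counts gave 0.14 and a pass (adjusted p = 0.0325, edgeR's quasi-likelihood test). MT1G ranged from -0.055 to 0.19 for its departure from the sum in BXPC3, MT1X from -0.020 to 0.17 with lonidamine in PANC1, MT1E from -0.12 to 0.11 for its departure in PANC1 and MT1F from -0.13 to 0.68 for its lonidamine response between lines. Other scalings moved the median of all genes by at most 0.084 on the log2 scale. With a minimum mean log2 CPM of 1 in place of 2, the fifth gene near SLC30A1 became KCNJ14, at 0.138. Depth limits MT1M in both lines and MT1F in PANC1, which rest on 0 to 18 counts per library.

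Libraries of 1 number did not deviate together. Their correlations ran from -0.0754 to 0.0775 in BXPC3 and from -0.135 to 0.0856 in PANC1, and 3 of 11 and 4 of 12 libraries correlated more with their own number. With the replicate number as a block, called genes stood at 0.897 to 0.996 times their number without it. MT1X with SR4 in PANC1 kept -0.43 and did not pass (adjusted p = 0.0585), nor did the SR4 response of MT1F between lines, at -1.77 (adjusted p = 0.0645).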
